A study of Mus musculus with 9 samples.

Results

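The livers of 3 mice treated with PRF 50 on a high-fat diet were compared gene by gene with the livers of 3 untreated mice on the same diet, with attention to genes and pathways beyond the published list of changed genes and beyond lipid turnover. The livers were chosen by their group labels. They are PRF 50 mice 3, 9 and 10 and HFD mice 1, 2 and 3, or 6 of the 9 livers in the series. PRF is a polymethoxyflavone-rich fraction from the leaf of Citrus sunki that contains tangeretin, nobiletin and sinensetin. All mice were male C57BL/6J animals that arrived at 4 weeks of age, were acclimated for 1 week, and were sampled after a fast on postnatal day 100. The HFD group ate a diet with 60% fat for 10 weeks. The PRF 50 group ate the same diet and was given PRF by mouth at 50 mg/kg every day in the last 5 weeks. A further 3 livers came from the ND group, mice 6, 7 and 9, which ate a diet with 14% fat, and their levels are given beside the comparison.

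Whole-liver RNA sums over hepatocytes and several other cell types, among them Kupffer cells, the resident macrophages that line the sinusoids and clear particles and dying cells from the blood. Macrophage identity depends on the transcription factor PU.1, the product of Spi1. Hepatocytes run sex-biased gene programs that follow the rhythm of growth hormone through STAT5, and they sense foreign compounds and bile acids through the nuclear receptors CAR and PXR, the products of Nr1i3 and Nr1i2.

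Each liver gave 1 library, and the deposited tables hold 1 value for each of 23183 gene symbols. The values were read as log2(FPKM + 1), where FPKM is the number of sequenced fragments relative to transcript length and library size. Read totals were not used here, so the counting error of a value is unknown. The depth of the libraries relative to HFD mouse 1 was estimated from their low values and was 1.17 and 1.59 in HFD mice 2 and 3, and 0.980, 1.51 and 0.963 in PRF 50 mice 3, 9 and 10. The labelled tissue was checked with 8 hepatocyte markers. Apoa1, an apolipoprotein made by hepatocytes, was the most abundant of them, at 12.69 to 13.45 in the HFD livers and 13.40 to 13.45 in the PRF 50 livers. Alb, the gene of serum albumin, is listed at 0 in all 9 livers, and the other 7 markers passed the minimum level and were tested.

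Some libraries stood apart from their group before any test. HFD mouse 2 had a value of 22.44 for the small nuclear RNA gene Rnu6, the highest of that library. PRF 50 mice 3 and 9, but not mouse 10, had high levels of neutrophil genes. S100a8, which encodes a calcium-binding protein abundant in neutrophils, was at 4.98 and 3.38 in PRF 50 mice 3 and 9 and at 1.30 in mouse 10, against 1.39 to 2.05 in the HFD livers. Counts are therefore also given without single livers for many of the lists. Such a count is of all members called without that liver, which need not be the genes called with it.

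Of the genes in the tables, those whose mean level over the 6 livers reached 1 FPKM were tested with limma, a linear model that shares its variance estimate across genes. A gene is described as upregulated or downregulated where its p, adjusted over all genes tested by the Benjamini-Hochberg method, was under 0.05. Of 10084 genes tested, 362 passed (3.59%), with 144 upregulated (1.43%) and 218 downregulated (2.16%) in PRF 50. At an unadjusted p under 0.05 there were 854 higher genes (8.47%) and 1185 lower genes (11.8%). The published list accounted for 117 of the genes tested and other lipid genes for 364. The remaining 9603 genes held 252 that passed (2.62%), of which 113 were upregulated and 139 downregulated, and the median log2 fold change of the 9603 genes was -0.01. In all 113 the PRF 50 livers lay above every HFD liver, and in all 139 below every HFD liver, so that a lack of overlap in a called gene adds nothing to its call. A gene low in 1 group could reach the minimum level through the other group alone, and could then pass only in that direction. Gene lists covering 46 pathways, cell types and families held 78 of these 252 genes. Unless stated otherwise, the counts and medians of the lists below leave out the genes of the published list, which was drawn from these livers, and the other lipid genes, and beyond the published list means beyond both; sums of cell type markers include them. The count of 252 became 121 without HFD mouse 1, 12 without HFD mouse 2, 6 without HFD mouse 3, 19 without PRF 50 mouse 3, 137 without PRF 50 mouse 9 and 96 without PRF 50 mouse 10. Likewise, the count of 362 became 215, 31, 15, 40, 242 and 168 in the same order of livers.

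**Figure D1:**
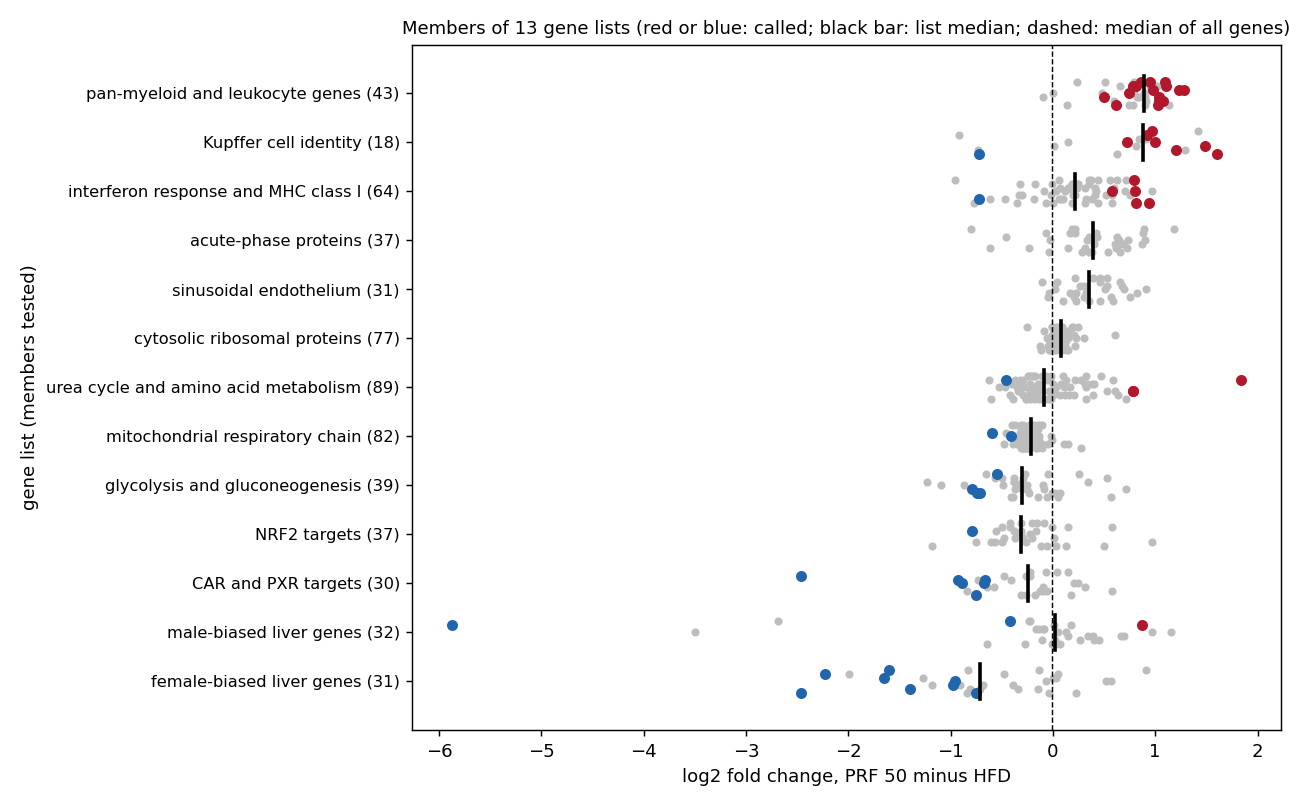
Log2 fold change, PRF 50 minus HFD, of the tested members of 13 gene lists beyond the published list and lipid turnover, with 1 dot per gene, called genes in red (upregulated) or blue (downregulated), and the list median as a black bar. The medians run from -0.72 for female-biased liver genes to 0.89 for pan-myeloid and leukocyte genes, and the median of all genes beyond the published list is -0.01.

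Of the 46 lists, that of pan-myeloid and leukocyte genes held the most upregulated genes. Of 43 tested pan-myeloid and leukocyte genes beyond the published list, 16 were upregulated and 0 downregulated in limma. At an unadjusted p under 0.05, 37 were higher and 0 lower, and the median log2 fold change was 0.89. Of 18 tested Kupffer cell genes beyond the published list, 7 were upregulated and 1 was downregulated, with a median of 0.88. Adgre1, which encodes a surface receptor that defines mouse macrophages, was more abundant in every PRF 50 liver than in any HFD liver, with a log2 fold change of 1.60 (SE 0.25, adjusted p = 0.0263 from limma).

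By liver, Adgre1 had log2 values of 1.45, 2.15 and 2.19 in HFD mice 1, 2 and 3 and of 3.91, 3.16 and 3.52 in PRF 50 mice 3, 9 and 10. Timd4, whose product on resident Kupffer cells binds phosphatidylserine on dying cells, had values of 1.03, 1.64 and 1.43 in the HFD livers and of 3.13, 2.71 and 2.72 in the PRF 50 livers. Cd163, the scavenger receptor for haemoglobin bound to haptoglobin, had values of 0.78, 1.25 and 1.06 in the HFD livers and of 2.42, 2.19 and 2.10 in the PRF 50 livers. PRF 50 mouse 3 had the highest value of each of the 3 genes. Timd4 was upregulated by 1.49 (SE 0.19, adjusted p = 0.015) and Cd163 by 1.21 (SE 0.15, adjusted p = 0.015). The lysosomal protein gene Cd68 was upregulated by 0.99, the cyclooxygenase gene Ptgs1 by 0.97, and, chosen after their values were seen to complete the 7, the interleukin-18 binding protein gene Il18bp by 0.72 and the kinase gene Dmpk by 0.92. The downregulated member was Hpgd, whose enzyme inactivates prostaglandins. Its values were 6.86, 6.88 and 7.08 in the HFD livers and 6.29, 6.02 and 6.33 in the PRF 50 livers.

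Spi1 itself had values of 1.81, 1.89 and 2.22 in the HFD livers and of 3.35, 2.80 and 3.04 in the PRF 50 livers, and was upregulated by 1.09 (SE 0.17, adjusted p = 0.0251 from limma). Cybb, the catalytic subunit of the phagocyte NADPH oxidase, had values of 1.24, 1.77 and 2.04 against 3.24, 2.63 and 3.01. Its cytosolic partner Ncf1 was upregulated by 0.86; Ncf1 and the Fc receptor, Lyn, Laptm5 and Cd53 genes given next were chosen after their values were seen. Inhibitory receptors of the Siglec and Cd300 families were among the upregulated genes, with log2 fold changes of 1.23 for Siglece and 0.74 for Cd300a, and so was the activating family member Cd300ld at 0.97. Siglec1, the sialic acid receptor of tissue macrophages, was at 0.43 to 0.75 in the HFD livers and at 1.55 to 1.63 in the PRF 50 livers. Siglece, Cd300a and Siglec1 reached the minimum level through the PRF 50 livers alone and could only be called as rises. The Fc receptor genes Fcgr1, Fcgr3 and Fcgr4, which bind antibody-coated particles, were upregulated by 0.81, 1.02 and 1.04. Further upregulated members were the hyaluronan receptor gene Cd44 at 0.95, the beta-glucan receptor gene Clec7a at 0.79, the kinase gene Lyn at 0.49, and Unc93b1, which carries nucleic acid sensing Toll-like receptors to endosomes, at 0.62. Laptm5, a lysosomal protein of leukocytes, was upregulated by 1.10 and the tetraspanin gene Cd53 by 1.07.

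Single livers moved these counts. The count of 16 upregulated pan-myeloid genes became 1 without HFD mouse 1, 0 without HFD mouse 2, HFD mouse 3 or PRF 50 mouse 3, 4 without PRF 50 mouse 10 and 15 without PRF 50 mouse 9. The count of 7 upregulated Kupffer cell genes became 3, 2 and 0 without HFD mice 1, 2 and 3, and 0, 6 and 2 without PRF 50 mice 3, 9 and 10 (4 under quantile normalization). Over the same leave-outs in limma, 35 to 38 pan-myeloid genes and 11 to 13 Kupffer cell genes were higher at an unadjusted p under 0.05, and the pan-myeloid median stayed between 0.65 and 1.01. The highest adjusted p over these leave-outs was 0.072 for Adgre1 (without PRF 50 mouse 3), 0.056 for Timd4 and 0.0606 for Cd163 (both without HFD mouse 3), and 0.0881 for Spi1 (without HFD mouse 2).

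The 8 Kupffer cell markers (Clec4f, Vsig4, Timd4, Cd5l, Marco, Cd163, Adgre1 and Csf1r) were all above 0 and tested, and 7 of 8 were upregulated. Their summed level was 53.8, 93.8 and 98.1 FPKM in HFD mice 1, 2 and 3 and 338, 197 and 230 FPKM in PRF 50 mice 3, 9 and 10, with Cd5l as the most abundant gene. The ND livers had 45.4, 86.0 and 121 FPKM, so that the PRF 50 livers were above all 6 other livers. Because 5 of the 8 markers are on the published list, which was drawn from these livers, their count is not independent evidence. Marco had adjusted p = 0.135 in limma and values of 5.90, 2.21 and 4.38 in PRF 50 mice 3, 9 and 10, against 1.23 to 2.10 in the HFD livers. In whole liver, more cells of a type and more RNA per cell cannot be told apart.

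**Figure D2:**
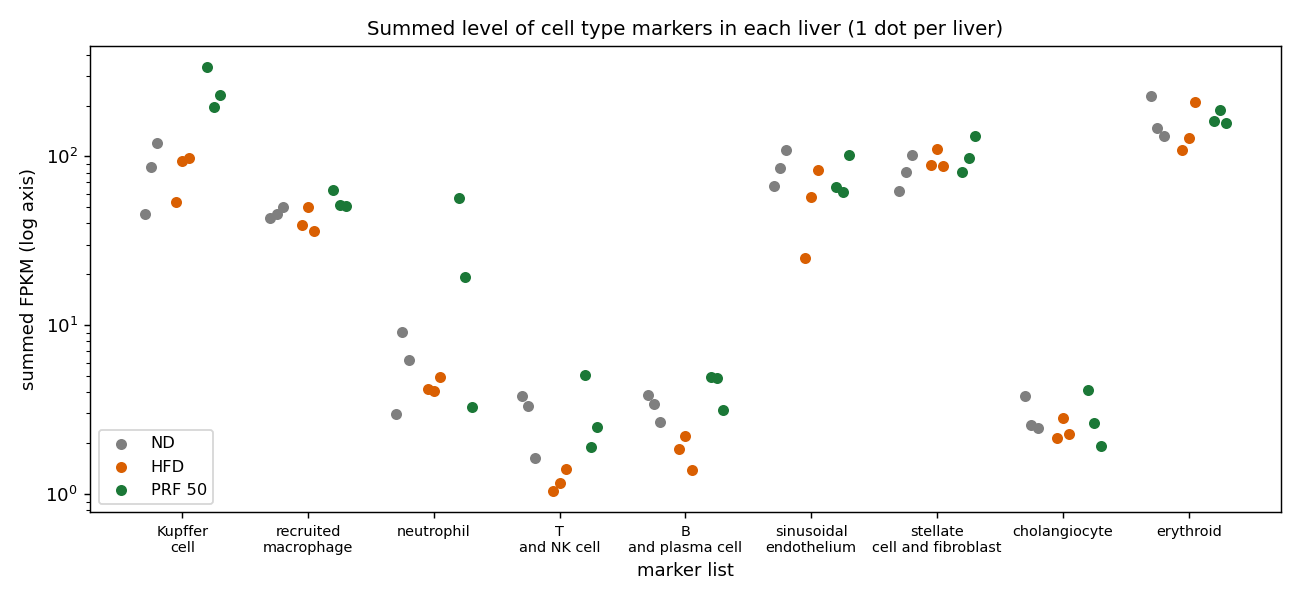
Summed FPKM of 9 lists of cell type markers in each of the 9 livers, on a log axis, with 1 dot per liver and the groups in color. The Kupffer cell sums of the PRF 50 livers (197 to 338 FPKM) lie above those of the HFD livers (53.8 to 98.1 FPKM), and the neutrophil sums reach 56.3 and 19.3 FPKM in PRF 50 mice 3 and 9 only.

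**Figure D3:**
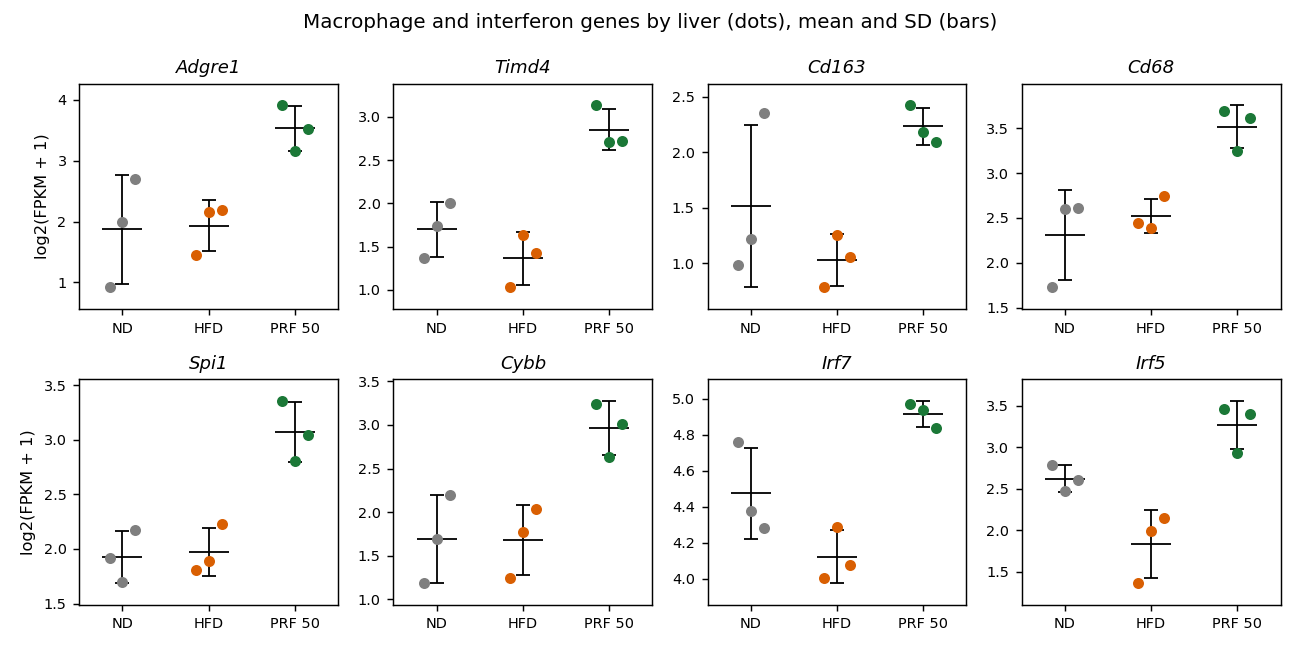
Log2(FPKM + 1) of 8 macrophage and interferon genes by group, with 1 dot per liver, bars for the mean ± SD (n = 3) and a separate axis range for each gene. All 8 are called genes, with for example 3.16 in the lowest PRF 50 liver against 2.19 in the highest HFD liver in Adgre1.

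Promoters were searched because Spi1 and other macrophage genes were among the upregulated genes. The PU.1 motif GAGGAAGT was searched on both strands in the 250 bases before each transcript start that RefSeq lists (GRCm38.p6), which can lie inside the outer bounds of a gene. It was found in 802 of 32851 promoters (2.44%), in 206 of the 7414 tested genes beyond the published list that matched a promoter (2.78%), and in 3 of the 18 upregulated Kupffer cell and pan-myeloid genes that matched. These 3 windows are printed from 5′ to 3′ on the strand of the gene, with the motif in capitals. A match is a description of letters and does not show a binding site. Cd300ld is read from the minus strand of chr11:114990002-114990049, with the motif 143 bases before the transcript start. Fcgr4 is read from the plus strand of chr1:171018882-171018925, with the motif on the opposite strand 24 bases before the transcript start. Ptgs1 is read from the plus strand of chr2:36230382-36230425, also 24 bases before the transcript start used, which lies 13684 bases inside the bounds of the gene.
Cd300ld: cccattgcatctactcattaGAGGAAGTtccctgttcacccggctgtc
Fcgr4: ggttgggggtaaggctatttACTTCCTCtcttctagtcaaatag
Ptgs1: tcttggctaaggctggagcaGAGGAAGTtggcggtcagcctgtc

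Few interferon response genes passed, and most of those that did were upregulated. Of 64 tested genes for the interferon response and MHC class I beyond the published list, 5 were upregulated and 1 was downregulated. At an unadjusted p under 0.05, 23 were higher and 4 lower, and the median was 0.22. Irf7, the transcription factor that amplifies type I interferon, had values of at most 4.29 in the HFD livers and of 4.97, 4.94 and 4.84 in the PRF 50 livers. Its log2 fold change was 0.79 (SE 0.10, adjusted p = 0.015 from limma). The GTPase gene Ifi47 was upregulated by 0.81, Parp14 by 0.58, and Irf8, a myeloid transcription factor, by 0.81. Irf5, which acts downstream of Toll-like receptors in macrophages, was outside this list and was upregulated by 1.43, from 1.36, 1.99 and 2.15 to 3.46, 2.93 and 3.40. Oas1a, an antiviral enzyme gene, was upregulated by 0.93. Ifit3b, an interferon-induced gene, was the downregulated member at -0.72. The list held 3, 1 and 0 upregulated genes without HFD mice 1, 2 and 3 and 0, 3 and 3 without PRF 50 mice 3, 9 and 10, and these were not always among the 5. At an unadjusted p under 0.05, 19 to 22 were higher in limma without any 1 liver, and Ifit3b was not called without any 1 liver (adjusted p up to 0.153, without HFD mouse 2).

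The interferon response motif GAAANNGAA was found on either strand in 2342 of 32851 promoters (7.13%) and in 1 of the 4 upregulated interferon genes that matched a promoter. That gene was Oas1a, shown because it carries 2 overlapping matches, 20 and 14 bases before the transcript start used, which lies 19 bases inside the bounds of the gene. The window is read from the minus strand of chr5:120907526-120907565 (GRCm38.p6), with both matches in capitals.
Oas1a: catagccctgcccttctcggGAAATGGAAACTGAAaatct

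Other immune lists had few calls. Of 16 tested chemokine genes, 2 were upregulated, among them the chemokine gene Ccl6 at 1.01. Ccl6 had values of 2.23, 2.84 and 2.89 in the HFD livers and of 3.83, 3.63 and 3.53 in the PRF 50 livers. Ccl6 and Clec7a were also the 2 upregulated genes among 12 tested genes of recruited and lipid-associated macrophages. Markers of recruited macrophages summed to 39.3, 50.4 and 36.3 FPKM in the HFD livers and to 63.4 and 51.2 FPKM in PRF 50 mice 3 and 9, with mouse 10 just under mouse 9 and above the HFD livers. Of the 8 markers 3 were tested, and Spp1 was the most abundant. Ccl6 kept its call only without HFD mouse 1, with an adjusted p of up to 0.102 without PRF 50 mouse 3, and Clec7a only without PRF 50 mouse 9. None of the 9 tested MHC class II genes beyond the published list passed in limma (with that list, 1 of 11 was upregulated), and 4 were higher at an unadjusted p under 0.05. Among them, Cd74, the invariant chain, had values of 5.49, 5.66 and 5.53 in the HFD livers and of 7.16, 5.93 and 6.14 in the PRF 50 livers. Only 3 genes of T, NK and B lymphocytes reached the minimum level, and 0 passed in limma, with 1 (Jchain) at an unadjusted p under 0.05. The B and plasma cell markers (6 of 7 in the tables, with Jchain the most abundant) summed to 1.85, 2.21 and 1.38 FPKM in the HFD livers and to 4.95, 4.87 and 3.15 FPKM in the PRF 50 livers. The T and NK cell markers (7 of 8 in the tables, with Nkg7 the most abundant) summed to 1.04, 1.17 and 1.41 FPKM in the HFD livers and to 5.04, 1.90 and 2.49 FPKM in the PRF 50 livers. Both sums were higher in each PRF 50 liver than in any HFD liver, and their part in the leukocyte counts was not tested. The ND livers overlapped the PRF 50 livers in both sums. ND mice 6, 7 and 9 had 3.87, 3.43 and 2.68 FPKM for B and plasma cells. For T and NK cells they had 3.78, 3.32 and 1.63 FPKM.

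Neutrophil genes differed within the PRF 50 group. Prtn3, which encodes the granule enzyme proteinase 3, had values of 0.27 to 0.52 in the HFD livers and of 3.77, 4.76 and 0.84 in PRF 50 mice 3, 9 and 10. S100a9 had values of 1.11 to 1.40 in the HFD livers and of 4.56, 3.05 and 1.43 in the same order. Mice 3 and 9 were far above the HFD livers in both genes and mouse 10 was close to them. Of 3 tested neutrophil genes, 0 passed in limma and 2 had an unadjusted p under 0.05. Without PRF 50 mouse 10, 2 of the 3 were upregulated. The neutrophil markers (7 of 8 in the tables, with S100a8 the most abundant and Mpo at 0 in all HFD livers) summed to 4.20, 4.09 and 4.91 FPKM in the HFD livers and to 56.3, 19.3 and 3.28 FPKM in PRF 50 mice 3, 9 and 10.

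Secreted plasma proteins were next. Of 37 tested acute-phase genes beyond the published list, 0 passed in limma, and 7 were higher and 3 lower at an unadjusted p under 0.05, with a median of 0.39. Orm1, an acute-phase glycoprotein gene, had values of 9.51, 9.34 and 9.34 in the HFD livers and of 10.99, 10.12 and 9.73 in PRF 50 mice 3, 9 and 10. Apcs, which encodes serum amyloid P, had values of 6.96 to 7.21 in the HFD livers and of 7.93, 8.93 and 6.33 in the same order. Mice 3 and 9 were higher than the HFD livers in both genes, and mouse 10 was lower than them in Apcs. The count of 7 higher acute-phase genes became 11, 3 and 2 without HFD mice 1, 2 and 3. It was 4 and 5 without PRF 50 mice 3 and 9, and 0 were upregulated in these 5 leave-outs in limma. Without PRF 50 mouse 10, 2 acute-phase genes were upregulated and 15 were higher at an unadjusted p under 0.05. The high neutrophil markers of mice 3 and 9 ran beside these values, and their part in them was not tested. Of 32 tested genes of IL-6 and IL-1 signaling, 0 passed in limma, 4 were higher and 2 lower at an unadjusted p under 0.05, and without PRF 50 mouse 10 there were 2 upregulated.

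Coagulation genes leaned upward, with 2 of 31 tested genes upregulated, 0 downregulated in limma, 9 higher and 0 lower at an unadjusted p under 0.05, and a median of 0.17. Pros1, the gene of the anticoagulant protein S, had values of 4.35, 4.23 and 4.41 in the HFD livers and of 5.12, 5.14 and 4.74 in the PRF 50 livers. F2r, the thrombin receptor gene, was upregulated by 0.63 from 3.25, 3.45 and 3.37 to 3.79, 4.13 and 4.04. The fibrinogen chain genes Fga, Fgb and Fgg had log2 fold changes of 0.66, 0.72 and 0.69 and did not pass. The list held 1 call without HFD mouse 1, of another gene, 1 without PRF 50 mouse 10 and 0 without any other single liver, where 4 to 6 genes were higher at an unadjusted p under 0.05 in limma. F2r lost its call whichever liver was left out (adjusted p up to 0.111, without HFD mouse 3), and Pros1 kept it only without PRF 50 mouse 10. Of 15 tested serpin A genes beyond the published list, 0 passed in limma, with 1 higher and 2 lower at an unadjusted p under 0.05; with that list, 1 of 16 was upregulated.

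Of 40 tested complement genes, 10 were upregulated and 2 downregulated, with a median of 0.44. The list held 7, 1 and 1 upregulated genes without HFD mice 1, 2 and 3 and 2, 8 and 10 without PRF 50 mice 3, 9 and 10. The 10 genes upregulated with no liver left out are all on the published list, and the 2 downregulated ones, beyond it, are neighbours. C1s2 and C1rb encode serine proteases related to the C1s and C1r components of the classical pathway, and they lie close to each other on chromosome 6 (GRCm38.p6, 124624625 to 124636085 and 124570430 to 124581044). C1rb had values of 1.99, 1.84 and 1.21 in the HFD livers and is listed at 0 in all 3 PRF 50 livers. C1s2 was at 2.96 to 3.13 in the HFD livers and at 0 to 0.03 in the PRF 50 livers. Among the ND livers, mouse 6 had 2.64 for C1rb and 2.71 for C1s2, while mice 7 and 9 were at 0 to 0.08 for both. The pair was thus listed at or near 0 in 5 of the 9 livers, and 1 ND liver was on the side of the HFD livers. Such switches between single livers also occurred in haemoglobin genes, chosen after their values were seen, which are near-copies of others. Hba-a2 was at 4.64 in HFD mouse 1 and 5.39 in ND mouse 9 and at 0.03 in the other livers, and Hbb-bs was at 3.02 in PRF 50 mouse 9 and 0.01 in PRF 50 mice 3 and 10. A value listed at 0 is therefore not read here as absence of the transcript. Their log2 fold changes were -1.68 for C1rb (SE 0.20, adjusted p = 0.015 from limma) and -3.01 for C1s2 (SE 0.10, adjusted p = 5.13e-05). C1rb lost its call with all 9 livers in 1 fit (adjusted p = 0.156) and without PRF 50 mouse 3 (adjusted p = 0.052) and was under the minimum level in 2 of the leave-outs. C1s2 kept its call without each liver in turn, with almost no spread in the PRF 50 livers. Both have close relatives, C1s1 and C1ra, and how reads were shared among them was not tested. The 30 tested complement genes beyond the published list had 0 upregulated genes in limma, 7 higher and 4 lower at an unadjusted p under 0.05, and a median of 0.27 (0.13 without PRF 50 mouse 3).

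Of the 46 lists, that of liver genes biased towards females held the most downregulated genes. Of 31 tested female-biased genes beyond the published list, 8 were downregulated and 0 upregulated in limma, 16 were lower and 2 higher at an unadjusted p under 0.05, and the median log2 fold change was -0.72. Slc22a27 and Slc22a29, organic anion transporter genes close together on chromosome 19, fell by 2.23 and 1.60. Cyp2b13, a female-biased cytochrome P450 gene, fell by 2.46 (SE 0.42, adjusted p = 0.0321 from limma), and Hao2, a peroxisomal hydroxy acid oxidase gene, by 1.65 (SE 0.27, adjusted p = 0.0294).

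In single livers, Slc22a27 was at 2.48, 3.26 and 2.93 in HFD mice 1, 2 and 3 and at 0.72, 0.92 and 0.34 in PRF 50 mice 3, 9 and 10. Cyp2b13 had 1.66, 2.25 and 3.53 against 0.07, 0 and 0. Hao2 had 1.02, 1.98 and 2.10 against 0.06, 0.08 and 0. Within the HFD group mouse 1 was the lowest in all 3 genes. The ND livers were at 0.68 to 0.88 for Slc22a27, 0.06 to 0.19 for Cyp2b13 and 0 to 0.16 for Hao2, near the PRF 50 values. Prlr, the prolactin receptor gene and a known target of growth hormone rhythm, had 4.99, 5.52 and 5.53 in the HFD livers and 4.42, 4.61 and 4.09 in the PRF 50 livers, and fell by 0.97 (SE 0.19, adjusted p = 0.0394). Cyp2c39 fell by 1.40, Gstt3 by 0.96 and Abcb1a by 0.75.

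Leaving out 1 liver gave 7, 1 and 1 downregulated female-biased genes without HFD mice 1, 2 and 3 and 1, 3 and 2 without PRF 50 mice 3, 9 and 10. Between 12 and 15 were lower at an unadjusted p under 0.05 over the same leave-outs, and the median ran from -0.79 to -0.53. The highest adjusted p in a leave-out was 0.0529 for Slc22a27 (without HFD mouse 3), 0.0625 for Slc22a29 and 0.0885 for Cyp2b13 (both without HFD mouse 2), 0.0833 for Hao2 (without PRF 50 mouse 3) and 0.133 for Prlr (without HFD mouse 3).

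**Figure D4:**
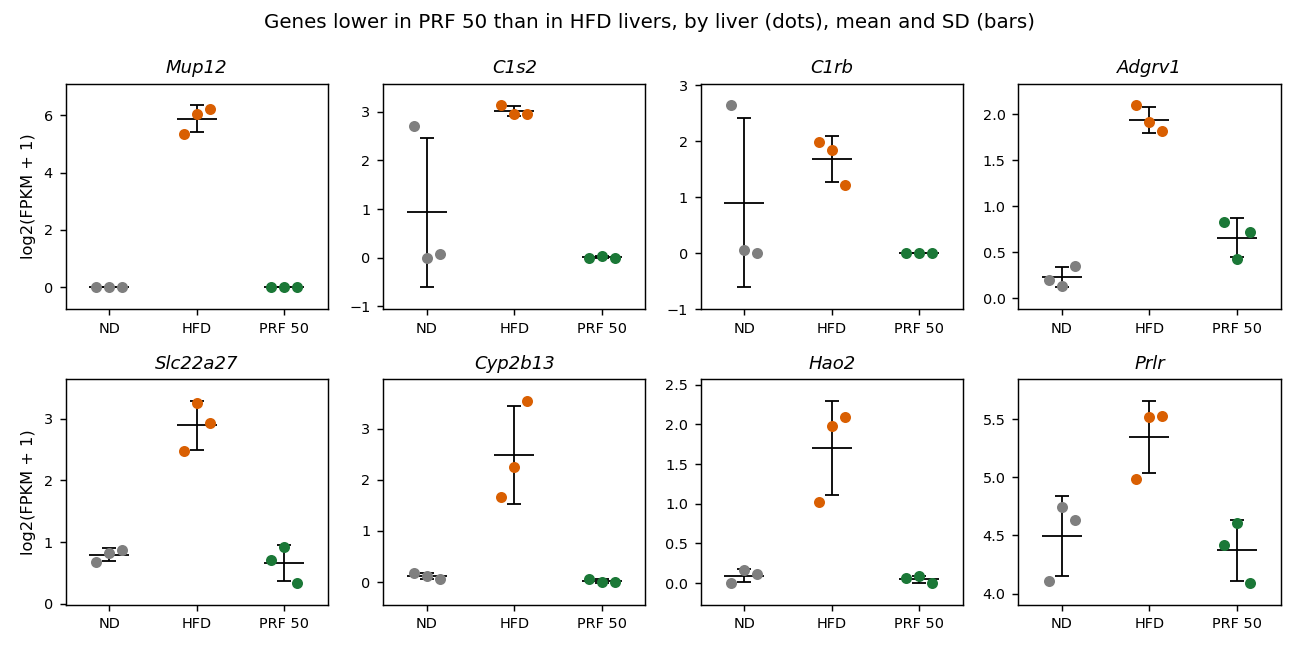
Log2(FPKM + 1) of 8 genes downregulated in PRF 50 by group, with 1 dot per liver, bars for the mean ± SD (n = 3) and a separate axis range for each gene. All 8 are called genes, and in C1s2 and C1rb 1 ND liver (2.71 and 2.64) stands with the HFD livers.

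The STAT5 motif TTCNNNGAA was searched because these lists follow growth hormone. It was found on either strand in 2306 of 32851 promoters (7.02%), in 525 of 7414 tested genes beyond the published list (7.08%) and in 1 of the 8 downregulated female-biased genes. The window of that gene, Prlr, lies on the plus strand of chr15:10223776-10223824 (GRCm38.p6), with the match in capitals 110 bases before 1 of the 3 transcript starts listed for the gene. That start lies 46668 bases inside the bounds of the gene.
Prlr: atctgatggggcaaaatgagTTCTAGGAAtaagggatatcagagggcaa

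Of 52 tested male-biased liver genes, 14 were upregulated and 3 downregulated, with a median of 0.22, and 16 of the 52 are on the published list. The list held 12, 4 and 3 upregulated genes without HFD mice 1, 2 and 3 and 6, 13 and 9 without PRF 50 mice 3, 9 and 10, and 3, 2 and 1 and then 1, 2 and 2 downregulated genes in the same order. Of the 32 beyond it, 1 was upregulated and 2 were downregulated, 4 were higher and 4 lower at an unadjusted p under 0.05, and the median was 0.02 (-0.09 to 0.18 without single livers). Susd4, a complement regulator gene, was upregulated by 0.87 from 2.43, 2.38 and 2.63 to 2.96, 3.69 and 3.41. The P450 gene Cyp2j5 fell by 0.42, from 7.93 to 7.99 in the HFD livers to 7.50 to 7.58 in the PRF 50 livers. Mup12, a gene of the major urinary proteins on chromosome 4 (GRCm38.p6, 60737381 to 60741416), was at 5.35 to 6.23 in the HFD livers and is listed at 0 in the other 6 livers. Mup12 kept its call without each liver in turn, with no spread in the PRF 50 livers. Its relatives Mup8 and Mup17, chosen after their values were seen, were at 1.79, 6.59 and 2.11 and at 0.02, 4.71 and 3.32 in HFD mice 1, 2 and 3 and are likewise listed at 0 in the other 6 livers. Mup genes are near-copies of each other, and the sharing of reads among them was not tested. Susd4 kept its call only without PRF 50 mouse 3, and Cyp2j5 lost it without any 1 liver, with an adjusted p of up to 0.154 and 0.157. In the growth hormone and STAT5 pathway, Prlr was the only call among 23 tested genes in limma, 3 were higher and 3 lower at an unadjusted p under 0.05, and the median was 0.03. The receptor gene Ghr had 8.23 to 8.43 in the HFD livers and 8.05 to 8.26 in the PRF 50 livers (adjusted p = 0.344), and Igf1 had 7.13 to 7.36 and 7.13 to 7.59 (adjusted p = 0.951).

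Targets of the drug-sensing receptors leaned down. Of 30 tested CAR and PXR targets beyond the published list, 6 were downregulated and 0 upregulated in limma, 10 were lower and 0 higher at an unadjusted p under 0.05, and the median was -0.24. The genes of both receptors were among the 6. Nr1i3 (CAR) had values of 6.23, 5.71 and 6.22 in the HFD livers and of 5.06, 5.32 and 4.97 in the PRF 50 livers and fell by 0.93 (SE 0.17, adjusted p = 0.0336 from limma). Nr1i2 (PXR) had 5.27, 4.84 and 5.12 against 4.51, 4.40 and 4.30 and fell by 0.67 (SE 0.12, adjusted p = 0.0369). Cyp3a25, a P450 gene of the PXR-responsive family, fell by 0.67 from 8.05, 8.13 and 8.16 to 7.44, 7.37 and 7.53. Aldh1a1, a retinaldehyde dehydrogenase gene, fell by 0.89, and Abcb1a, a drug efflux pump gene, and Cyp2b13 are given above. The count of 6 became 2, 1 and 1 without HFD mice 1, 2 and 3 and 0, 2 and 1 without PRF 50 mice 3, 9 and 10 (3 under quantile normalization, with a median of -0.15), and 8 to 12 targets were lower at an unadjusted p under 0.05 in limma. In the leave-outs the adjusted p of Nr1i3 reached 0.115 and that of Nr1i2 0.124, both without HFD mouse 3.

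The related conjugation families beyond the published list also had negative medians, with fewer calls. With that list, 1 of 42 tested NRF2 targets was upregulated and 3 were downregulated. Of the 37 beyond it, 1 was downregulated, and 16 were lower and 2 higher at an unadjusted p under 0.05. Their median was -0.31, and -0.23 under quantile normalization. Ephx1, the microsomal epoxide hydrolase gene, was that call, from 7.29, 7.31 and 7.54 to 6.86, 6.30 and 6.60. Nqo1, a classical NRF2 target, was at 2.61 to 3.17 in the HFD livers and 2.24 to 2.44 in the PRF 50 livers (adjusted p = 0.0942). Gstt3 was the call among 20 tested glutathione S-transferases beyond the published list (median -0.31; with that list, 1 of 21 was upregulated and 1 downregulated), with 5.32, 4.99 and 5.62 against 4.08, 4.62 and 4.38. Among 23 tested glucuronosyl- and sulfotransferases, Ugt3a1 fell by 0.75 and Ugt1a5 by 0.87, and the median was -0.26 (-0.12 under quantile normalization). Of 24 tested genes of steroid and thyroid hormone handling beyond the published list (1 of 27 was upregulated and 1 downregulated with it), Akr1d1, the bile acid and steroid 5-beta reductase gene, fell by 0.56 from 7.03, 6.77 and 6.95 to 6.22, 6.40 and 6.46. Of 10 tested AHR targets beyond the published list, 0 passed in limma and 2 were lower at an unadjusted p under 0.05. Ephx1, Gstt3 and Akr1d1 lost their calls whichever liver was left out, with adjusted p up to 0.14, 0.124 and 0.138 (without HFD mouse 3). Ugt3a1 kept its call without HFD mouse 1, PRF 50 mouse 9 or PRF 50 mouse 10, and Ugt1a5 kept it only without PRF 50 mouse 9.

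Among 32 tested solute and organic ion transporters beyond the published list, 2 were upregulated and 5 downregulated. Slc17a8, which encodes a vesicular glutamate transporter, had values of 4.08, 4.14 and 3.59 in the HFD livers and of 1.35, 1.90 and 2.14 in the PRF 50 livers, and fell by 2.14 (SE 0.23, adjusted p = 0.0133 from limma). The phosphate and organic anion transporter gene Slc17a4 fell by 0.76, with 4.14, 4.49 and 4.47 against 3.52, 3.66 and 3.64. The other 3 were Slc22a27, Slc22a29 and Abcb1a. Slc16a10, the aromatic amino acid transporter gene, was upregulated by 0.59, and Slco2a1, the prostaglandin transporter gene, by 0.81 from 2.67, 2.29 and 2.24 to 3.26, 3.18 and 3.20. The list held 4, 1 and 1 downregulated genes without HFD mice 1, 2 and 3 and 2, 5 and 3 without PRF 50 mice 3, 9 and 10, and 0 upregulated genes without HFD mouse 2, HFD mouse 3, PRF 50 mouse 3 or PRF 50 mouse 9. Slc16a10 and Slco2a1 kept their calls only without HFD mouse 1, and Abcb1a lost its call whichever liver was left out. In the leave-outs with 0 upregulated genes, 3 to 6 transporters were higher at an unadjusted p under 0.05 in limma.

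Glycolysis genes leaned down with few calls, among them genes that act where pyruvate enters mitochondria. Of 39 tested genes of glycolysis and gluconeogenesis beyond the published list, 4 were downregulated and 0 upregulated in limma, 18 were lower and 2 higher at an unadjusted p under 0.05, and the median was -0.30. Under quantile normalization 3 were downregulated in limma, 14 were lower and 1 higher at that unadjusted p, and the median was -0.23. Mpc1, a subunit of the mitochondrial pyruvate carrier, fell by 0.79 (SE 0.11, adjusted p = 0.0201 from limma). Pdha1, the catalytic subunit of pyruvate dehydrogenase, fell by 0.54 (SE 0.08, adjusted p = 0.0238). Pdk1, a kinase that inhibits that enzyme, fell by 0.74.

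Mpc1 was at 8.61, 8.45 and 8.62 in HFD mice 1, 2 and 3 and at 7.87, 7.64 and 7.82 in PRF 50 mice 3, 9 and 10. Pdha1 was at 6.22, 6.24 and 6.21 against 5.61, 5.66 and 5.76. Pdk1 was at 4.96, 4.88 and 4.62 against 3.80, 4.21 and 4.23. Gbe1, the glycogen branching enzyme gene and the only call among 17 tested genes of glycogen metabolism beyond the published list, had 6.53, 6.41 and 6.44 against 5.76, 5.77 and 5.73, and fell by 0.70 (SE 0.08, adjusted p = 0.0147). At an unadjusted p under 0.05, 7 glycogen genes were lower and 1 higher in limma. Of 28 tested insulin signaling genes, 0 passed in limma, with 3 higher and 3 lower at an unadjusted p under 0.05 and a median of 0.01. The count of 4 in the glycolysis list became 3, 0 and 0 without HFD mice 1, 2 and 3 and 0, 2 and 2 without PRF 50 mice 3, 9 and 10, with 13 to 20 lower at an unadjusted p under 0.05 in limma. Pdk1 was not called without any 1 liver (adjusted p up to 0.141, without HFD mouse 2). Gbe1 lost its call without HFD mouse 2, HFD mouse 3 or PRF 50 mouse 3, where its adjusted p was at most 0.0563.

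Respiratory chain genes leaned down by a small amount with few calls. Of 82 tested genes, 79 had a negative and 3 a positive log2 fold change, 2 were downregulated and 0 upregulated in limma, 30 were lower and 0 higher at an unadjusted p under 0.05, and the median was -0.22. Ndufs1, the largest subunit of complex I, had values of 5.89, 5.89 and 5.84 in the HFD livers and of 5.42, 5.48 and 5.48 in the PRF 50 livers, and fell by 0.41 (SE 0.08, adjusted p = 0.0351). Etfdh, which passes electrons from fatty acid and amino acid oxidation to ubiquinone, had 7.21, 7.36 and 7.36 against 6.53, 6.85 and 6.78, and fell by 0.60. Quantile normalization left 0 of the 82 called in limma and 17 lower at an unadjusted p under 0.05, with a median of -0.13. Neither gene was called without any 1 liver, where 15 to 31 were lower at an unadjusted p under 0.05 and the adjusted p was up to 0.129 for Ndufs1 and 0.133 for Etfdh, both without HFD mouse 2. Nnt, the mitochondrial transhydrogenase gene in which C57BL/6J mice carry a deletion, was outside all lists and chosen after its values were seen. It had 5.44, 5.41 and 5.45 in the HFD livers and 4.84, 4.98 and 4.84 in the PRF 50 livers, with adjusted p = 0.0232 from limma.

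**Figure D5:**
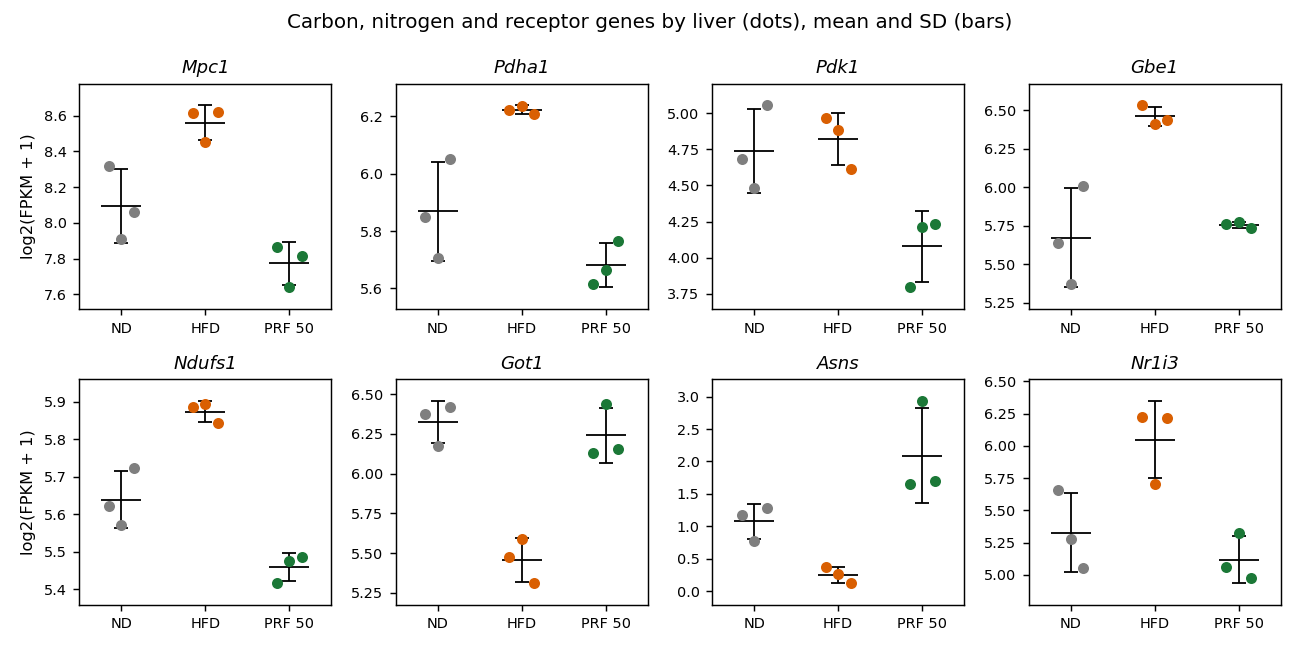
Log2(FPKM + 1) of 8 genes, those of carbohydrate, energy and amino acid metabolism and the receptor gene Nr1i3, by group, with 1 dot per liver, bars for the mean ± SD (n = 3) and a separate axis range for each gene. Got1 and Asns are higher in PRF 50 than in HFD livers, and the other 6 genes are lower, for example Mpc1 at 7.64 to 7.87 against 8.45 to 8.62.

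Amino acid metabolism held upregulated and downregulated genes. Of 89 tested genes of the urea cycle and amino acid metabolism beyond the published list, 3 were upregulated and 1 was downregulated, 11 were higher and 19 lower at an unadjusted p under 0.05, and the median was -0.09. Quantile normalization turned this balance, with 4 upregulated and 0 downregulated in limma, 18 higher and 5 lower at an unadjusted p under 0.05, and a median of 0.01. Asns, the asparagine synthetase gene, had the largest log2 fold change of the upregulated genes beyond the published list, with 0.36, 0.27 and 0.12 in the HFD livers and 1.65, 2.93 and 1.69 in the PRF 50 livers (log2 fold change 1.84, SE 0.33, adjusted p = 0.0342 from limma). Got1, the cytosolic aspartate aminotransferase gene, had 5.47, 5.59 and 5.31 against 6.13, 6.44 and 6.16, an increase of 0.78. Acmsd, which directs tryptophan breakdown away from NAD synthesis, had 1.79, 1.76 and 1.87 against 2.67, 2.35 and 2.73. Mouse 9 was the highest PRF 50 liver for Asns and Got1 and the lowest for Acmsd. The downregulated gene was Mccc1, a subunit of the leucine-degrading carboxylase, at -0.46. The list held 2, 0 and 0 upregulated genes without HFD mice 1, 2 and 3 and 0, 2 and 1 without PRF 50 mice 3, 9 and 10, with 7 to 9 higher at an unadjusted p under 0.05 in limma where the count was 0. Asns lost its call in each leave-out that tested it (adjusted p up to 0.115), and none of Asns, Got1 and Acmsd was called without HFD mouse 1. Mccc1 was not called without any 1 liver, with an adjusted p of up to 0.132.

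Asns is also a target of the integrated stress response, and it was the only call among 19 tested genes of that list in limma, with 1 higher and 2 lower at an unadjusted p under 0.05. Atf4, the transcription factor of that response, had 4.91 to 5.13 in the HFD livers and 5.01 to 5.11 in the PRF 50 livers (adjusted p = 0.808). Xbp1, a transcription factor of the endoplasmic reticulum stress response and of secretory cells, was the only call among 37 tested genes of protein folding in that compartment. It had 6.17, 6.14 and 6.18 in the HFD livers and 6.52, 6.61 and 6.63 in the PRF 50 livers, an increase of 0.42 (SE 0.08, adjusted p = 0.0373 from limma). Heat shock genes leaned down, with 1 of 21 downregulated (Chordc1, a cochaperone of the Hsp90 system, at -0.44), 10 lower and 0 higher at an unadjusted p under 0.05, and a median of -0.21. Of 17 tested p53 targets, Trp53inp1 fell by 0.53 from 4.10, 3.84 and 4.12 to 3.51, 3.48 and 3.49, with 5 lower and 0 higher at an unadjusted p under 0.05. Cytosolic ribosomal protein genes had 0 calls in limma among 77 tested and 0 at an unadjusted p under 0.05, with a median of 0.08 (0.15 under quantile normalization). Without HFD mouse 1 the ribosomal median was 0.23, with 8 genes higher at that unadjusted p. Without HFD mouse 3 it was -0.04, with 1 higher and 1 lower. Among 36 proteasome genes, 0 passed in limma and 3 were lower at an unadjusted p under 0.05. The proteasome median was -0.09, and quantile normalization turned it to 0.02, with 2 genes higher and 0 lower at that unadjusted p. Without HFD mouse 2, HFD mouse 3 or PRF 50 mouse 10, 0 proteasome genes were lower. Xbp1, Chordc1 and Trp53inp1 lost their calls whichever liver was left out, with adjusted p up to 0.14 (without HFD mouse 2), 0.121 and 0.129 (both without HFD mouse 3).

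Clock genes held few calls. Of 28 tested clock and clock output genes, 2 were downregulated and 0 upregulated in limma, and 6 were lower and 0 higher at an unadjusted p under 0.05. Wee1, a clock-controlled cell cycle kinase gene and 1 of the 2, had 3.27, 3.18 and 3.39 in the HFD livers and 2.60, 2.58 and 2.89 in the PRF 50 livers. Dbp, a clock output gene with a large daily rhythm, had 5.79 to 6.22 in the HFD livers and lay within that range in the PRF 50 livers (adjusted p = 0.512). The list held 0 calls without HFD mice 1, 2 or 3 or PRF 50 mice 3 or 9 in limma, with 5 to 8 lower at an unadjusted p under 0.05.

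Zonation lists, which separate hepatocytes near the portal vein from those near the central vein, held 1 upregulated gene of 18 periportal genes tested, and 1 upregulated and 1 downregulated gene of 20 pericentral genes tested, all beyond the published list. Cdh1, the E-cadherin gene of periportal hepatocytes and bile duct cells, had values of 2.24, 1.74 and 1.55 in the HFD livers and of 3.44, 3.25 and 3.54 in the PRF 50 livers, and was upregulated by 1.57 (SE 0.18, adjusted p = 0.0147 from limma). Avpr1a, the vasopressin receptor gene, had 2.47, 1.81 and 1.62 against 3.10, 3.05 and 3.22. HFD mouse 1 was the highest of its group in both genes. Aldh1a1 was the downregulated pericentral gene. Cdh1 lost its call without HFD mouse 2, HFD mouse 3 or PRF 50 mouse 3 (adjusted p up to 0.0572), Avpr1a kept it only without HFD mouse 1 (adjusted p up to 0.111), and Aldh1a1 lost it without any 1 liver (adjusted p up to 0.109).

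Beyond the published list, the remaining lists had at most 1 call. Nrg4, a growth factor that binds the ErbB4 receptor, was the call among 15 tested genes of the EGF receptor family and among 25 tested hepatokines, and fell by 0.54 from 2.72, 2.72 and 2.60 to 2.10, 2.09 and 2.22. With the published list, each of these 2 lists also held 1 upregulated gene, of 16 and 34 tested. Cd163 was the call among 33 tested genes of hepcidin and iron handling, of which 3 were higher and 5 lower at an unadjusted p under 0.05. In limma, 0 of 31 sinusoidal endothelial genes passed (4 higher and 0 lower at an unadjusted p under 0.05), 0 of 33 stellate cell and matrix genes (3 higher, 3 lower), 0 of 8 cholangiocyte genes (1 lower), 0 of 6 erythroid genes (0 in either direction), 0 of 25 cell cycle genes (1 higher, 3 lower) and 0 of 13 hepatocyte identity genes (2 higher, 1 lower). The sinusoidal endothelial markers summed to 25.1, 57.6 and 83.1 FPKM in HFD mice 1, 2 and 3 and to 65.5, 61.5 and 102 FPKM in PRF 50 mice 3, 9 and 10, with overlap between the groups and Clec4g as the most abundant gene. Of the 31 endothelial genes, 28 had a positive and 3 a negative log2 fold change, and the median was 0.35 (0.11 without HFD mouse 1, the liver with the lowest endothelial and Kupffer cell sums of the 3 HFD livers). Of the 13 hepatocyte identity genes, 10 had a positive and 3 a negative log2 fold change, with a median of 0.35. Without HFD mouse 1, 8 of them were higher at an unadjusted p under 0.05 in limma and 1 was upregulated. Without any other single liver 1 or 2 were higher. Under quantile normalization 7 were higher and 1 was downregulated. Nrg4 kept its call only without PRF 50 mouse 10.

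Several of the largest changes lay outside the lists. Tgm1, a transglutaminase that crosslinks proteins, had values of 1.52, 1.47 and 1.37 in the HFD livers and of 2.66, 2.97 and 2.69 in the PRF 50 livers, and kept its call without each liver in turn (adjusted p up to 0.0372). Ang, the secreted ribonuclease angiogenin, had 7.99, 7.39 and 7.41 against 9.14, 8.97 and 8.48, the highest level among the 12 upregulated genes with the largest fold change beyond the published list. The membrane protein genes Tmem51 and Tspan9 were upregulated by 1.35 and 0.75, AB124611 by 1.29 and Fmr1nb by 1.42, with Fmr1nb at 0.42, 0 and 0.93 in the HFD livers and 2.13, 2.08 and 1.40 in the PRF 50 livers.

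Among the falls outside the lists, Stap1, a signaling adaptor gene of hematopoietic cells, had 2.40, 2.91 and 2.55 in the HFD livers and 0.99, 0.86 and 0.25 in the PRF 50 livers and fell by 1.92 (SE 0.22, adjusted p = 0.0147 from limma). Gpc1, a cell surface proteoglycan gene, had 2.79 to 4.09 against 1.72 to 2.13, and Tpm2, a tropomyosin gene, 2.81 to 4.04 with all PRF 50 livers at or under 1.86. The spread within the HFD group was wide for both. Aqp4, a water channel gene, had 2.39, 2.47 and 2.13 against 0.98, 0.33 and 0.96. Adgrv1, a very large adhesion receptor gene, had 2.10, 1.91 and 1.82 against 0.83, 0.42 and 0.72. Of the 81 genes named by the rule, Tgm1, Mup12 and C1s2 kept their calls without each liver in turn. Mup12 and C1s2 were listed at or near 0 in all PRF 50 livers and reached the minimum level through the HFD livers alone. With almost no spread in the PRF 50 group, leaving out 1 of its livers could hardly change these genes, so their kept calls are weak support. The calls kept numbered 39 of 80 without HFD mouse 1, 8 of 79 without HFD mouse 2, 6 of 80 without HFD mouse 3, 11 of 81 without PRF 50 mouse 3, 41 of 80 without PRF 50 mouse 9 and 33 of 81 without PRF 50 mouse 10.

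Levels in the normal diet livers are given beside these values, and the comparisons share livers with the one above, HFD livers in HFD vs ND and PRF 50 livers in PRF 50 vs ND. In HFD vs ND, 133 of 9978 genes passed (1.33%), and in PRF 50 vs ND, 46 of 10051 (0.458%). The female-biased transporter genes Slc22a27 and Slc22a29 were 2.10 and 1.56 higher in HFD than in ND (adjusted p = 0.00419 and 0.0077 from limma) and were not tested in PRF 50 vs ND because they were under the minimum level. Adgrv1 was at 0.20, 0.13 and 0.35 in the ND livers, and 1.71 higher in HFD (adjusted p = 0.00157). Got1 was at 6.38, 6.17 and 6.42 in the ND livers, and its log2 fold change was -0.87 in HFD vs ND (adjusted p = 0.0208) and -0.08 in PRF 50 vs ND (adjusted p = 0.817). Tgm1 was at 2.40, 2.09 and 2.39, with -0.84 (adjusted p = 0.024) and 0.48 (adjusted p = 0.207).

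The macrophage genes did not share 1 order of levels. Irf5 was at 2.79, 2.47 and 2.61 in the ND livers, between the HFD and the PRF 50 livers, and Cd163 was at 0.98, 1.22 and 2.35, with ND mouse 9 above PRF 50 mice 9 and 10. Adgre1 was at 0.92, 1.99 and 2.70 in the ND livers, which overlapped the HFD livers, with log2 fold changes of 0.06 in HFD vs ND (adjusted p = 0.965) and 1.66 in PRF 50 vs ND (adjusted p = 0.154). Spi1 was at 1.91, 1.70 and 2.17, with 0.05 (adjusted p = 0.923) and 1.14 (adjusted p = 0.0491), and Ccl6 was at 1.66, 1.95 and 2.30, with 0.68 (adjusted p = 0.211) and 1.69 (adjusted p = 0.0128). In Spi1 and Ccl6 the PRF 50 livers lay above all ND livers. Cyp3a25 was at 8.54, 8.50 and 8.31 in the ND livers, below every one of which lay the PRF 50 livers (7.37 to 7.53), with adjusted p = 0.256 in HFD vs ND and 0.0217 in PRF 50 vs ND, and Gstt3 was at 6.02, 5.34 and 5.67, with -0.36 (adjusted p = 0.474) and -1.32 (adjusted p = 0.0457). The count of 133 became 41 and 35 without HFD mice 2 and 3 and 63 and 39 without ND mice 6 and 7, and that of 46 became 17 and 4 without ND mice 6 and 7 and 8, 26 and 71 without PRF 50 mice 3, 9 and 10.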

How the data were processed

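RNA of 9 livers (3 ND, 3 HFD, 3 PRF 50) was sequenced by the authors from poly(A)-selected libraries, 1 per mouse, so that p-values measure the spread between mice. According to the submitters' notes, reads were mapped with TopHat to mm10 (version not stated); FPKM came from Cufflinks, with a geometric normalization for which the authors name EdgeR. The deposited values are on a log2 scale and were read as log2(FPKM + 1); the constant of 1 is inferred from the lowest value, 0.

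Genes with a mean back-transformed FPKM of at least 1 over the 6 livers compared were tested with limma 3.58.1 (lmFit, eBayes with a trend) in R 4.3.3, with Benjamini-Hochberg adjustment over all genes tested and no covariates; no batch labels are given. The steps were tested on simulated data. Beyond the 117 genes of the published list, lipid genes were set aside by name. The members and the 46 lists were chosen with earlier results of these data known, and lists are described by counts and medians. The genes named are, among those called beyond the published list and lipid turnover, the 12 with the largest fold change and the 8 with the smallest p in each direction and up to 6 called members of each list, plus members that define a list. Positions and promoters are from RefSeq (GRCm38.p6), searched with Python 3.11.15 and pandas 2.3.3. The alternatives were each liver left out in turn, all 9 livers in 1 fit, a pseudocount of 0.1, no minimum, quantile normalization, eBayes without a trend, median-of-ratios scaling and a minimum of 10 FPKM.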

Additional observations from a re-analysis of the deposited data

How the results depend on the processing

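No gene named by the rule changed sign under any alternative (0 of 81). In called genes the PRF 50 and HFD livers did not overlap, so a liver left out or another pseudocount could not change a sign. Another minimum, eBayes without a trend and the fit of all 9 livers leave the fold change as it was. The count of 0 is therefore not support. In PRF 50 vs HFD, the 362 genes that passed became 126 with no minimum level, and between 15 (without HFD mouse 3) and 242 (without PRF 50 mouse 9) when 1 liver was left out. The 252 genes beyond the published list and lipid turnover became 75 with no minimum, 144 with a minimum of 10 FPKM and 156 with quantile normalization, and between 6 and 137 with 1 liver left out. In HFD vs ND, the 133 genes became 37 with no minimum and between 35 and 140 with 1 liver left out. In PRF 50 vs ND, the 46 genes became 107 with all 9 livers in 1 fit and 11 with no minimum, and between 4 and 71 with 1 liver left out. No minimum tests more genes (16525 in place of 10084), a minimum of 10 FPKM tests fewer (4139), and a liver left out leaves 2 in its group; for quantile normalization and the fit of all 9 livers the cause was not tested. The share of called genes that were higher in PRF 50 was 39.8%, and it was 19.4% with a minimum of 10 FPKM, 30.2% with no minimum, 46.1% under quantile normalization and 26.7% to 50% with 1 liver left out. The median log2 fold change of all genes tested was -0.015, and -0.072 with a minimum of 10 FPKM, so lists of abundant genes sit beside a lower background. Of 81 named genes, 22 were called under each alternative with all livers that tested them (a minimum of 10 FPKM tested 34 of the 81), 57 under quantile normalization and 28 with no minimum. Of 596 medians of lists, 33 moved by more than 1 SD, where the SD is the spread within groups of the list's median in single livers. Part of the 596 could not move, because the fit of all 9 livers and eBayes without a trend leave fold changes as they were. No paired analysis was possible because each mouse gave 1 liver in 1 group, and an equal animal number in different groups does not pair animals. Counts per gene were not used here, so the limit that depth sets is unknown.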
